A study of Mus musculus with 145 samples.

Results

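*Dmrt1* and 7 genes of the p53 pathway (*Trp53*, *Mdm2*, *Cdkn1a*, *Ccng1*, *Phlda3*, *Bbc3* and *Trp53inp1*) were followed through the reprogramming of mouse spermatogonial stem cells (SSCs) to germline-derived pluripotent stem cells (gPSCs). The 8 genes were chosen by name, out of 24615 genes in the single-cell count table, and all 8 were present in it. SSCs had been established from postnatal males of a cross of a C57BL/6 mother carrying an *Oct4*-EGFP reporter with a DBA father (DBA/2 in the study's methods). They were cultured on mouse embryonic fibroblast feeders that had been inactivated with mitomycin C, so feeder cells can be among the cells picked. In the original condition no compound was given, and modified STRT-seq, a single-cell method that counts unique molecular identifiers (UMIs), had been run on 46 libraries from days 0 to 27, with 4464 cells in the table once the cell lines are included. The line gPSC-1 at passages 1 and 15 (gPSC p1 with 48 cells, gPSC p15 with 32 cells) and an embryonic stem cell (ESC) line of the same cross with 45 cells gave 1 library each, the gPSCs having been kept in N2B27+2iL medium. A second experiment read RNA by scTrio-seq2 in 8 samples treated with 5 compounds (5C: SGC707, vitamin C, EGCG, Daphnetin and TUDCA) and 5 samples given the solvent DMSO.

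The p53 protein, encoded by *Trp53*, is a transcription factor that is held at a low level by the ubiquitin ligase Mdm2, itself a p53 target, and that after DNA damage and other stress switches on genes for cell cycle arrest, repair and apoptosis. The pathway is known as a barrier to induced pluripotency. *Dmrt1* encodes a DM-domain transcription factor of germ cells and Sertoli cells that holds spermatogonia back from meiosis and pluripotency, and its loss in mice leads to testicular teratoma. Among the genes followed, *Cdkn1a* encodes the cyclin-dependent kinase inhibitor p21, *Ccng1* cyclin G1, *Phlda3* an inhibitor of Akt signalling, *Bbc3* the pro-apoptotic protein PUMA, and *Trp53inp1* a nuclear protein that modulates the p53 response.

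By the GENCODE vM21 annotation of the mouse genome build GRCm38 (mm10), *Dmrt1* lies at chr19:25505618-25604329 and *Trp53* at chr11:69580359-69591873, both on the + strand. RefSeq sequence of the same build was given for the 300 bases around the start sites of 6 of the genes, with none for *Dmrt1* and *Trp53inp1*. The p53 half-site, the decamer that p53 binds in pairs, was searched on the strand of the gene, and, being its own reverse complement in pattern, equally on the other strand. An exact decamer occurred in 8.36% of 32851 such windows, and a full site of 2 decamers with at most 2 mismatches in all and up to 13 bases between them in 4.09%. The 250 bases upstream of the start are printed for the windows with a match, 5′ to 3′ on the strand of the gene, with exact decamers and both decamers of a full site in capitals. They are shown as the windows in which the p53 pattern was found, with full sites in *Cdkn1a* and *Ccng1* and a single decamer in *Mdm2* and *Trp53*.
Cdkn1a chr17:29090729-29090978 (+ strand): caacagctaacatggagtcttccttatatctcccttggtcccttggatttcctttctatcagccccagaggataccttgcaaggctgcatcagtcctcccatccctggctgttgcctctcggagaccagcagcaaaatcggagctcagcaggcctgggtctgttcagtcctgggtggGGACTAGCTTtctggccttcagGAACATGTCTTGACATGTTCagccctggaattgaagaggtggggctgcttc
Ccng1 chr11:40755287-40755536 (- strand): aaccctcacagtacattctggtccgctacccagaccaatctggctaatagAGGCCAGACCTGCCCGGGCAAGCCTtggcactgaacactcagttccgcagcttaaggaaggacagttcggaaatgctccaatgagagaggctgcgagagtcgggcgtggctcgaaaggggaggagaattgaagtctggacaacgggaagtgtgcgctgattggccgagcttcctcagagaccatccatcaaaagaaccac
Mdm2 chr10:117710759-117711008 (- strand): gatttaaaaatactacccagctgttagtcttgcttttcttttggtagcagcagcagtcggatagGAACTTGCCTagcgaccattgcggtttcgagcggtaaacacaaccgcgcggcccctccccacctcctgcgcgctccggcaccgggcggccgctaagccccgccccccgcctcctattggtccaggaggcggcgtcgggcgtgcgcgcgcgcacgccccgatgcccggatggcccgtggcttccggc
Trp53 chr11:69580109-69580358 (+ strand): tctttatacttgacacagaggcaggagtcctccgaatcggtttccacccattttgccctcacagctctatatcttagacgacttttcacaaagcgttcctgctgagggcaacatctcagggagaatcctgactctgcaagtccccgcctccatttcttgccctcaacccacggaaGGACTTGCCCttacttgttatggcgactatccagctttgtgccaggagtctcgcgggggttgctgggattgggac
The printed *Cdkn1a* window lies at the more upstream of the start sites given for that gene. In it an exact pair began 73 bases before that start with 12 bases between the decamers. A pair without a gap and with 1 mismatch began 51 bases before the same start. The *Ccng1* window held a pair without a gap and with 1 mismatch 195 bases before the start. No match stood in the windows of *Phlda3* and *Bbc3*, or in the second window of *Cdkn1a*, at its downstream start. A match is a string of letters, and binding was not measured.

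Cells were grouped by the deposited cluster names into SSC1-4 (clusters SSC1, SSC2, SSC3 and SSC4, 2265 cells), the reprogramming clusters RPG1 (333 cells), RPG2 (47), RPG3 (261) and RPG4 (33), and cells named fibroblast, early-pluripotent, meiotic and neural. UMIs were summed per library and class where at least 5 cells were present, and levels are given as CPM, the UMIs of a gene scaled to a common total per sum with TMM factors. Original-condition libraries held 15975410 to 34609591 UMIs, and the sums 433094 to 34168335. The study describes the cells as taken from 2 batches of SSC reprogramming. The RPG2 sums all came from batch B2 and the RPG4 sums all from batch B1, as the deposited cell annotation names them. RPG1 had 5 sums in B1 and 2 in B2, and RPG3 had 5 and 3, so steps between these classes within a batch rest on few sums. Germ cell markers summed to 1107 to 2136 CPM in SSC1-4, 1277 to 1511 in RPG1 and 91.5 to 304 in RPG2, RPG3 and RPG4, and the pluripotent markers to 22.8 to 242 CPM in SSC1-4 (median 66.9) and 119 to 331 in RPG1 (median 142), whereas RPG2 held 1094 to 1577, RPG3 1218 to 1630 and RPG4 603 to 769. Fibroblast and feeder markers were at 242 to 1330 CPM in the fibroblast class, above the highest SSC1-4 library (145 CPM), but its germ cell markers were also high (1002 to 1425 CPM). Meiotic markers were at 74.4 to 150 CPM in meiotic cells (median 104) and at 12.3 to 157 CPM in SSC1-4 (median 68.5). In early-pluripotent cells the pluripotent markers (*Pou5f1*, *Nanog*, *Sox2* and *Utf1*) were at 50.5 to 176 CPM, within the SSC1-4 range. *Esrrb* and *Dppa2*, by which the study named that class, are not in this marker list. Neural markers were at 0 to 115 CPM in the neural class (median 13.2), against 0 to 28.1 CPM in SSC1-4 (median 8.31), beside germ cell markers at 818 to 1601 CPM. The clusters were made from these same transcriptomes, and *Dmrt1* was one of the SSC markers by which the clusters had been named, so the p-values below describe differences between classes that are not independent of the measure.

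*Dmrt1* stood high in SSC1-4 and RPG1 and at successively lower mean levels in the later classes. In SSC1-4 its level was 80.6 CPM in the lowest of 36 libraries, 276 in the median and 427 in the highest (mean 269.9 ± 79.9, SD). In the 7 RPG1 libraries it ran from 139 to 265 CPM with a median of 163, inside the SSC1-4 range. In RPG2 the 3 libraries gave 23.1 CPM (day 12 replicate 2), 56.7 (day 14 replicate 5) and 104 (day 14 replicate 6). The highest of these lay above the lowest SSC1-4 library, and none reached the lowest RPG1 library. The 8 RPG3 libraries ran from 7.30 to 38.7 CPM with a median of 24.0, and the 2 RPG4 libraries gave 7.91 and 4.40 CPM. RPG3 and RPG4 overlapped neither SSC1-4 nor RPG1, while RPG3 overlapped both RPG2 and RPG4.

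Against SSC1-4, *Dmrt1* was 4.29-fold lower in RPG2 cells (log2 fold change −2.10 ± 0.34, SE, adjusted p = 3.7e-07). It was 11.5-fold lower in RPG3 cells (−3.52 ± 0.24, adjusted p = 2.0e-23) and 45.5-fold lower in those of RPG4 (−5.51 ± 0.56, adjusted p = 1.4e-13), all by edgeR's quasi-likelihood test with Benjamini-Hochberg adjustment. In RPG1 the log2 fold change was −0.51 ± 0.20 and did not pass (adjusted p = 0.13, edgeR). A gene was called where the adjusted p was below 0.05 and the natural-log fold change at least 0.5 in size. Without RPG2 of day 14 replicate 6 its log2 fold change in RPG2 was −2.74 over SSC1-4 and −2.23 over RPG1, both called. Between successive classes, *Dmrt1* was 3.01-fold lower in RPG2 than in RPG1 (log2 fold change −1.59 ± 0.35, edgeR adjusted p = 0.00029), 2.68-fold lower in RPG3 than in RPG2 (−1.42 ± 0.31, edgeR adjusted p = 0.0015) and 3.97-fold lower in RPG4 than in RPG3 (−1.99 ± 0.50, edgeR adjusted p = 0.0045). The call from RPG2 to RPG3 was lost without RPG2 of day 14 replicate 6, where the log2 fold change was −0.78 (edgeR adjusted p = 0.22), and within batch B2 (−1.38, edgeR adjusted p = 0.069). That from RPG3 to RPG4 was lost without RPG4 of day 20 replicate 2, at −1.56, a fit in which 1 RPG4 sum was left. Within the 2 libraries that held both RPG3 and RPG4, with the library as a block, the step was −0.24 ± 1.34 and not called (edgeR adjusted p = 0.95). Those libraries had the lowest *Dmrt1* of all RPG3 sums, 7.48 CPM (day 20 replicate 1) and 7.30 CPM (day 20 replicate 2), beside 7.91 and 4.40 CPM in their RPG4 cells. In day 12 replicate 2, the 1 library that held both RPG2 and RPG3, *Dmrt1* was at 23.1 and 18.4 CPM.

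In the 7 libraries that held both classes, *Dmrt1* in RPG3 was 4.92% to 26.9% of its level in RPG1, and the germ cell genes *Dazl* (an RNA-binding protein) and *Ddx4* (an RNA helicase) were at 9.46% to 24.8% and 5.48% to 26.2%. The cells beside RPG2 in the same libraries held 3413, 3842 and 7458 *Dmrt1* UMIs where RPG2 had 23.1, 56.7 and 104 CPM. Whether RNA from neighbouring cells adds to the low *Dmrt1* counts was not tested. After thinning each cell to 50000 UMIs, *Dmrt1* was seen in 98.0% of 2100 SSC1-4 cells, 95.5% of 312 RPG1 cells, 75.6% of 45 RPG2 cells, 48.4% of 254 RPG3 cells (exact binomial 95% interval 42.1% to 54.8%) and 39.4% of 33 RPG4 cells (22.9% to 57.9%). In gPSCs, a cell type without germ cell identity, the share was 19.5% of 77 cells (11.3% to 30.1%), and in ESCs 13.95% of 43 cells (5.30% to 27.9%). Thinning left out 165 SSC1-4, 21 RPG1, 2 RPG2, 7 RPG3, 0 RPG4, 3 gPSC and 2 ESC cells; over all cells the shares were 99.2%, 97.0%, 95.7%, 86.2%, 75.8%, 40.0% and 26.7% at median depths from 238901 (RPG1) to 345221 (RPG4) UMIs. With thinning to 20000 UMIs they were 25.9% in RPG3, 9.09% in RPG4, 11.4% in gPSCs and 4.65% in ESCs. The intervals cover counting error over pooled cells, and the shares were not compared between classes or lines by a test.

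**Figure D1:**
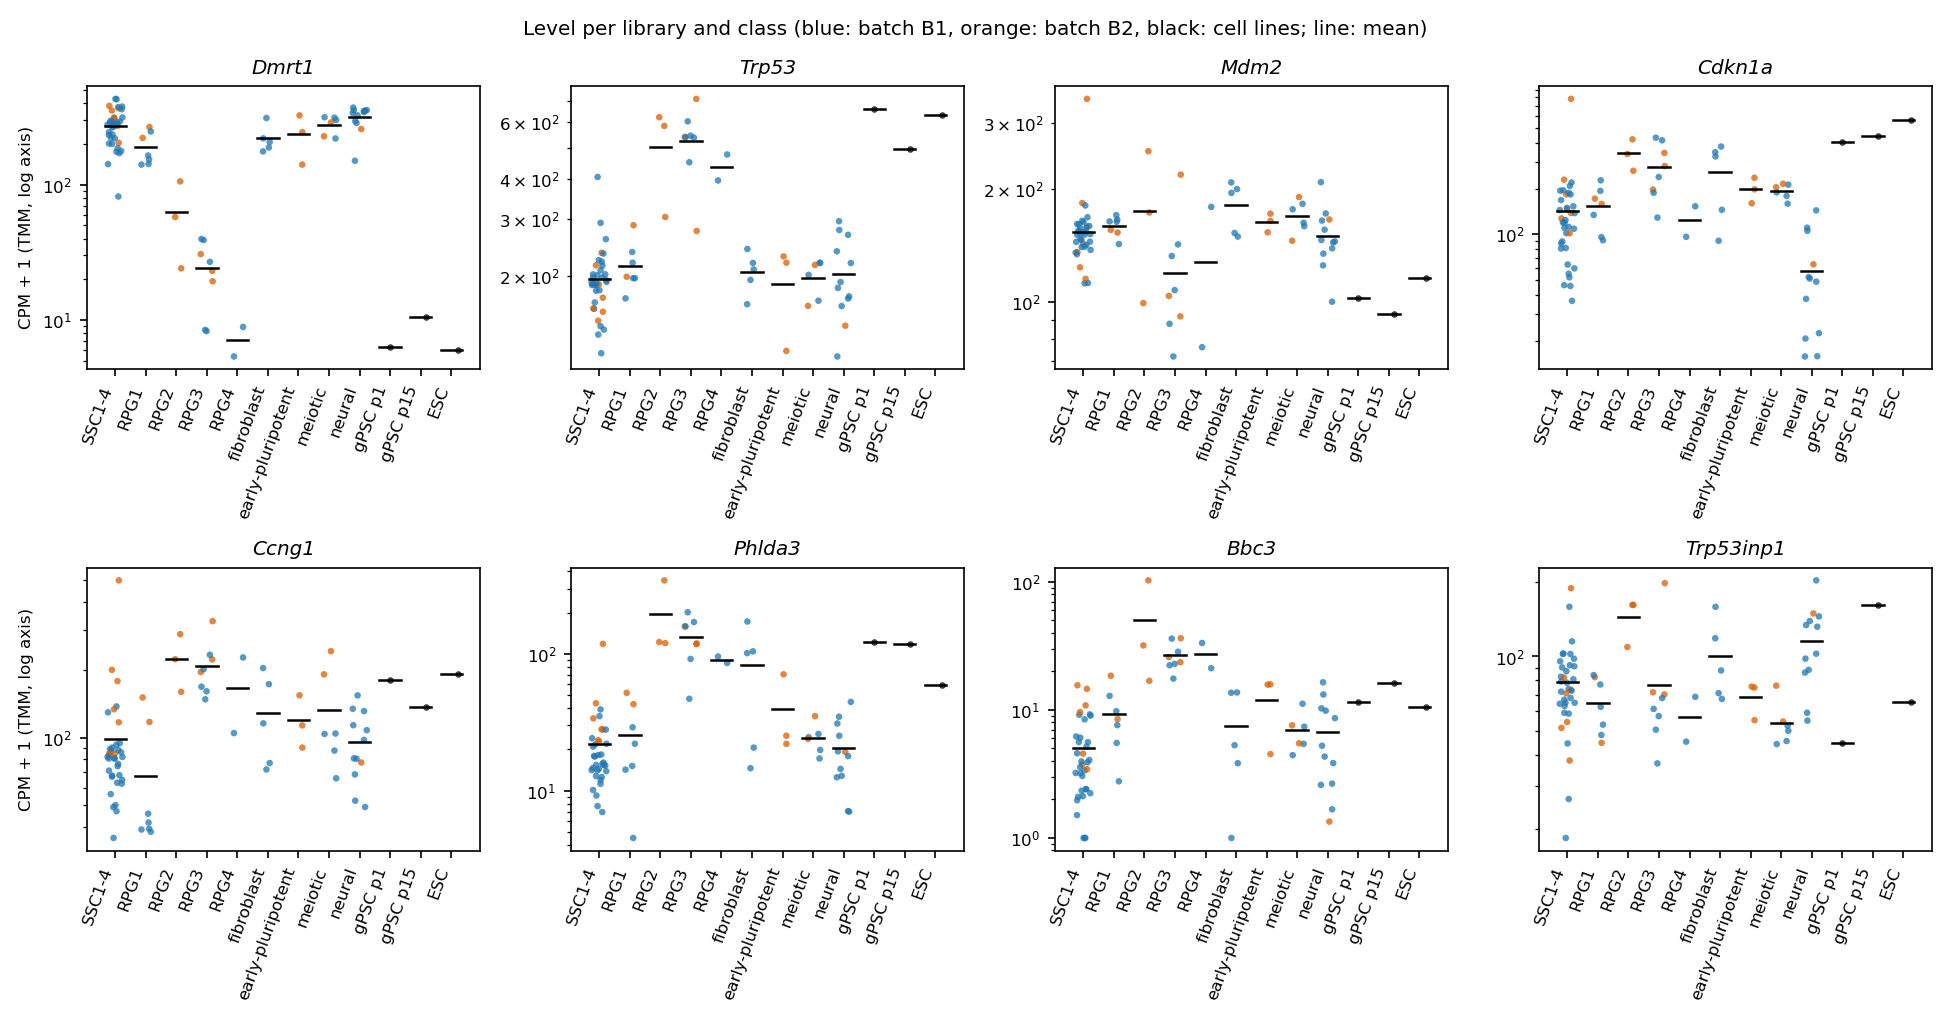
Level of each gene per library and class, in CPM + 1 on a log axis. Each point is the summed count of 1 library (blue batch B1, orange batch B2, black the 3 cell line libraries) and the bar is the class mean. The class mean of *Dmrt1* falls from RPG2 to RPG4, though the difference of RPG3 and RPG4 was not called within the libraries that hold both. *Trp53*, *Phlda3* and *Bbc3* stand higher in RPG2, RPG3 and RPG4 than in SSC1-4.

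*Trp53*, the gene of p53 itself, showed the reverse. It was at 114 CPM in the lowest SSC1-4 library, 190 in the median and 405 in the highest, and the 7 RPG1 libraries stood between 169 and 286 CPM. RPG2 libraries gave 304, 621 and 583 CPM, RPG3 libraries 275 to 708 CPM with a median of 538, and RPG4 libraries 475 and 395 CPM. The lowest RPG2 and RPG3 values both came from day 12 replicate 2, and apart from that library every RPG2 and RPG3 sum was above the highest SSC1-4 library. *Trp53* was 2.62-fold higher in RPG2 than in SSC1-4 (log2 fold change 1.39 ± 0.18, edgeR adjusted p = 3.4e-10). The fold was 2.71 for RPG3 (1.44 ± 0.12, edgeR adjusted p = 1.1e-18) and 2.25 for RPG4 (1.17 ± 0.22, edgeR adjusted p = 1.1e-05). It did not pass in RPG1 (0.14 ± 0.14, edgeR adjusted p = 0.67), and no step from RPG2 to RPG3 (0.05 ± 0.23, edgeR adjusted p = 0.97) or from RPG3 to RPG4 (−0.27 ± 0.27, edgeR adjusted p = 0.58) was called. The difference from RPG1 to RPG2 was called (1.25 ± 0.22, edgeR adjusted p = 6.0e-06), but not within batch B2, which holds all RPG2 sums and 2 of 7 RPG1 sums (1.06 ± 0.35, edgeR adjusted p = 0.054). *Mdm2*, whose product degrades p53, was not called in any of these classes over all their libraries, with log2 fold changes of 0.21 ± 0.19 in RPG2, −0.37 ± 0.13 in RPG3 and −0.26 ± 0.24 in RPG4. The RPG3 value had an adjusted p of 0.011 by edgeR but lay under the fold limit. The 2 RPG4 libraries differed in *Mdm2*, at 178 CPM (day 20 replicate 1, 8 cells) and 75.01 CPM (day 20 replicate 2, 13 cells). Without the former its log2 fold change was −1.02, and without the latter 0.24. The limit of at least 10 cells per sum also left out day 20 replicate 1 (−0.98). In each of these fits 1 RPG4 sum was left and the spread came from the other classes, so no call is drawn from them.

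*Phlda3* and *Bbc3*, targets that act on survival, were higher in RPG2, RPG3 and RPG4. *Phlda3* was at 5.96 to 117 CPM in SSC1-4, where the median was 15.9 and the highest value came from day 16 replicate 6, a sum of only 8 cells. It was at 119, 121 and 343 CPM in RPG2, at 45.9 to 200 CPM in RPG3 with a median of 138, and at 84.7 and 94.5 CPM in RPG4. Its fold over SSC1-4 was 10.0 in RPG2 (log2 fold change 3.32 ± 0.36, edgeR adjusted p = 1.1e-12), 6.73 in RPG3 (2.75 ± 0.28, edgeR adjusted p = 8.4e-15) and 4.57 in RPG4 (2.19 ± 0.48, edgeR adjusted p = 0.00016). Without RPG2 of day 14 replicate 6, its highest RPG2 library, the log2 fold change in RPG2 was 2.61 and called. *Bbc3* was scarce in SSC1-4, between 0 and 14.6 CPM with a median of 2.83, and all RPG2 (15.9, 30.9 and 102 CPM), RPG3 (16.6 to 35.3 CPM) and RPG4 sums (20.2 and 32.3 CPM) were above that range. The fitted folds over SSC1-4 were 12.3 (3.62 ± 0.50, edgeR adjusted p = 4.9e-09), 6.26 (2.65 ± 0.39, edgeR adjusted p = 1.2e-08) and 6.44 (2.69 ± 0.64, edgeR adjusted p = 0.00062). The RPG2 value fell to 2.52 without day 14 replicate 6 and was still called. The RPG4 call was lost without day 20 replicate 2 (2.31), where the other RPG4 sum alone was left. In RPG1, *Bbc3* stood at 1.77 to 17.5 CPM and did not pass (1.02 ± 0.45, edgeR adjusted p = 0.18).

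The cell cycle members were higher in RPG2 and RPG3, and over all libraries, with no batch or replicate term, they were not called in RPG4. The RPG2 calls of *Cdkn1a* and *Ccng1* were both lost with batch as a covariate (0.89, edgeR adjusted p = 0.11, and 0.45, edgeR adjusted p = 0.27), with sums per batch and day (1.32, edgeR adjusted p = 0.11, and 1.15, edgeR adjusted p = 0.079), within batch B2 and without day 14 replicate 6. In RPG3 both were lost within batch B2, and *Cdkn1a* also with sums per batch and day (1.16, edgeR adjusted p = 0.057). *Cdkn1a* gave 262, 338 and 422 CPM in RPG2 and 128 to 433 CPM in RPG3 (median 260), against 35.5 to 781 CPM in SSC1-4 (median 121), so the groups overlapped. Its fold over SSC1-4 was 2.48 in RPG2 (log2 fold change 1.31 ± 0.39, edgeR adjusted p = 0.0053) and 2.01 in RPG3 (edgeR adjusted p = 0.0011), and its log2 fold change in RPG4 was −0.16 ± 0.55 (edgeR adjusted p = 0.84). An annotated transcript of unsettled kind, AC167363.2, lies over 1046 bases of *Cdkn1a* on the other strand, and whether counting used strand is not given in the sources used here. *Ccng1* was at 159, 222 and 287 CPM in RPG2 and 147 to 328 CPM in RPG3, against 34.8 to 498 CPM in SSC1-4 with a median of 81.0. Its log2 fold changes were 1.25 ± 0.34 (RPG2, edgeR adjusted p = 0.0019), 1.12 ± 0.23 (RPG3, edgeR adjusted p = 2.1e-05) and 0.80 ± 0.43 (RPG4, edgeR adjusted p = 0.16). In RPG4 it was called within batch B1, which holds all RPG4 sums (1.12, edgeR adjusted p = 0.00093), with batch as a covariate (1.08, edgeR adjusted p = 0.0077), with the title's replicate number as a block (1.06, edgeR adjusted p = 0.0495) and without SSC1-4 of day 16 replicate 6 (0.94, edgeR adjusted p = 0.039). The RPG4 libraries themselves gave 226 and 104 CPM, and without day 20 replicate 1 the log2 fold change was 0.13. *Trp53inp1* was called in RPG2 alone among the 4 classes, with libraries at 161, 108 and 161 CPM (0.90 ± 0.28, edgeR adjusted p = 0.0089), a call lost without day 12 replicate 2 (0.82, edgeR adjusted p = 0.066), with batch as a covariate (0.68, edgeR adjusted p = 0.093) and with sums per batch and day (0.94, edgeR adjusted p = 0.11). In RPG3 its log2 fold change was −0.06 ± 0.20 (edgeR adjusted p = 0.84), and the step from RPG2 to RPG3 was −0.95 ± 0.34 and not called (edgeR adjusted p = 0.073).

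**Figure D2:**
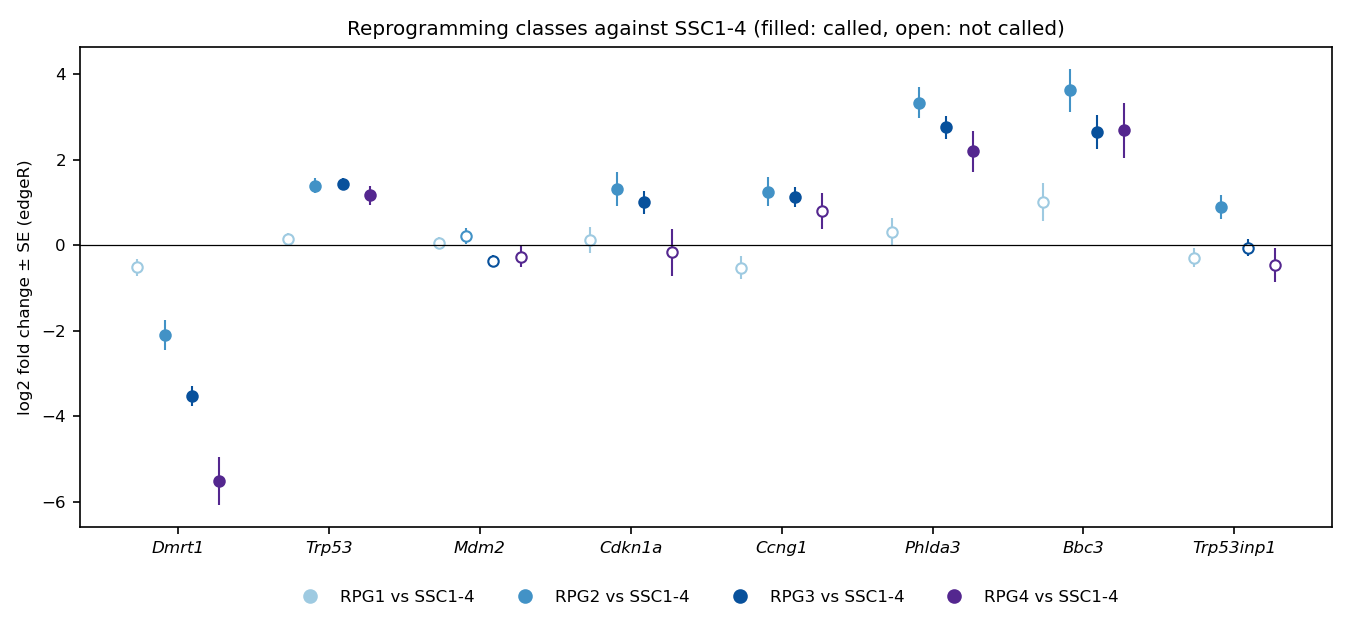
Log2 fold change of each gene in RPG1, RPG2, RPG3 and RPG4 over SSC1-4, with its standard error; filled points were called and open points were not. The 4 comparisons share the SSC1-4 sums. RPG1 has no filled point, and *Dmrt1* is the gene below zero in the other 3 classes among those called.

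In counts, RPG1 against SSC1-4 gave 0 of 8 called by edgeR, where 3.78% of all 20030 genes tested were; *Dmrt1* and *Bbc3* had an unadjusted p below 0.05, and DESeq2 called none of the 8. With batch as a covariate *Ccng1* was called as lower in RPG1 (−0.76, edgeR adjusted p = 0.027), and within batch B1 likewise (−0.95, edgeR adjusted p = 0.0058). RPG2 gave 6 higher and 1 lower (32% of all genes were called, 14.8% as higher and 17.2% as lower), RPG3 5 higher and 1 lower (46.9%, with 19.4% higher and 27.5% lower), and RPG4 3 higher and 1 lower (25.8%, with 11.7% higher and 14% lower). The step from RPG1 to RPG2 had 5 higher and 1 lower called (25.1%, with 11.2% higher and 13.9% lower). Those from RPG2 to RPG3 (5.71%, 2.97% lower) and from RPG3 to RPG4 (8.45%, 4.57% lower) had *Dmrt1* alone. Without RPG3 of day 12 replicate 2, *Mdm2* (−0.75) and *Trp53inp1* (−1.30) were called as lower in RPG3 than in RPG2 as well, and *Mdm2* (−0.86) without RPG2 of day 14 replicate 5. Median log2 fold changes of the 8 genes were 1.28, 1.06 and 0.32 in RPG2, RPG3 and RPG4, beside −0.52, −0.25 and −0.54 over all genes. Within batch B2, RPG2 kept *Dmrt1*, *Trp53*, *Phlda3* and *Bbc3* as called but not *Cdkn1a* (0.54, edgeR adjusted p = 0.29), *Ccng1* (0.32, edgeR adjusted p = 0.51) or *Trp53inp1* (0.91, edgeR adjusted p = 0.069). In RPG3 the calls of *Cdkn1a* and *Ccng1* were likewise made in batch B1 (1.28 and 1.26) and not in B2 (0.21, edgeR adjusted p = 0.71, and 0.47, edgeR adjusted p = 0.34), while those of *Dmrt1*, *Trp53*, *Phlda3* and *Bbc3* were made in each. *Cdkn1a*, *Ccng1* and *Trp53inp1* were also not called in RPG2 without the library of day 14 replicate 6 (1.11, 1.01 and 0.79), which left 4 of 8, and neither was *Bbc3* in RPG2 against RPG1 (1.499, edgeR adjusted p = 0.21). *Cdkn1a* was called in RPG2 against RPG1 without RPG1 of day 23 replicate 2 (1.30, edgeR adjusted p = 0.045). SSC1-4 sums of batch B2 had a median *Ccng1* of 133 CPM and *Cdkn1a* of 146, against 79.6 and 111 in B1.

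RPG3 and RPG1 could also be set side by side inside single libraries. In all 7 libraries that held both RPG1 and RPG3, *Trp53*, *Phlda3*, *Bbc3*, *Cdkn1a* and *Ccng1* were higher in RPG3, and *Dmrt1* and *Mdm2* were lower. The log2 ratio of RPG3 to RPG1, with 1 CPM added to each, ran from 1.18 to 1.68 for *Trp53* and from 1.46 to 3.50 for *Phlda3*. For *Ccng1* it ran from 0.38 to 2.34, for *Bbc3* from 0.48 to 3.01 and for *Cdkn1a* from 0.20 to 1.12. *Mdm2*, the inhibitor of p53, ranged from −1.21 to −0.26. *Trp53inp1* was higher in 2 of the 7 libraries and lower in 5, with ratios from −0.55 to 0.65. These pairs share library, day and batch, and no test was made on them.

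Further genes of the pathway were taken as a list of 26 other p53 targets, all of which were tested. In RPG2 14 were higher and 2 lower (14.8% and 17.2% of all genes), in RPG3 14 and 4 (19.4% and 27.5%), and in RPG4 9 and 4 (11.7% and 14%), with median log2 fold changes of 0.97, 0.79 and 0.25. *Zmat3* (an RNA-binding splicing regulator) was at 2.98 ± 0.34 in RPG2 and 2.80 ± 0.25 in RPG3, *Gadd45a* (a stress sensor in growth arrest) at 2.18 ± 0.31 and 1.57 ± 0.22, and *Sesn2* (an inhibitor of mTORC1) at 1.86 ± 0.29 and 1.61 ± 0.21. *Fas*, the death receptor, and *Xpc*, a nucleotide excision repair gene, were the lower ones in RPG2, and *Btg2* and *Sesn1* joined them in RPG3. In RPG1 1 of the 26, *Ak1*, was called, near the share of all genes (3.78%). Of 17 regulators and relatives of p53, 16 were tested and *Cop1* was not. The 6 called in RPG3 were no larger a share than the 46.9% of all genes called there. The 4 higher ones were *Chek2* and *Sirt1*, a kinase and a deacetylase that act on p53, *Usp7*, which removes ubiquitin from p53 and Mdm2, and the p53 relative *Trp73*. *Cdkn2a*, the locus of the Mdm2 inhibitor Arf, and the phosphatase gene *Ppm1d* were lower there, at −1.07 ± 0.37 and −1.35 ± 0.24.

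Among 6 other DM-domain genes, 3 were lower in RPG2 (17.2% of all genes) and 4 in RPG3 (27.5%), with none higher in either, and in RPG4 3 were lower (14%) and *Dmrta1* higher (11.7%). In RPG1, where 3.78% of all genes were called, 1 of the 6, *Dmrtc2*, was lower (−0.89 ± 0.24, edgeR adjusted p = 0.017). Of 5 genes tied to *Dmrt1* in germ cells or gonads, 4 were tested. *Zbtb16*, a spermatogonial transcription factor that had also served to name the clusters, was at −4.72 ± 0.43 in RPG2 and −4.44 ± 0.26 in RPG3. *Sohlh1*, a regulator of spermatogonial differentiation, was at −3.96 ± 0.53 and −3.74 ± 0.33. The pluripotency gene *Sox2*, which had likewise served to name clusters, was higher already in RPG1 (1.67 ± 0.37, edgeR adjusted p = 0.0016). In RPG1 *Stra8*, the gate to meiosis, and *Sohlh1* were lower and *Dmrt1* was not called.

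Cells named fibroblast, early-pluripotent, meiotic and neural had few of the 8 genes called against SSC1-4, apart from 2 small clusters. Over the fibroblast class 1 of 8 was called (5.33% of all genes, 5.11% as higher), *Phlda3*, at 13.6 to 171 CPM in 5 libraries with a median of 100 (2.06 ± 0.33, edgeR adjusted p = 1.2e-06). *Cdkn1a* (0.90, edgeR adjusted p = 0.10) was called in addition without the fibroblast sum of day 14 replicate 2 (1.12) or the SSC1-4 sum of day 16 replicate 6 (1.06). The *Phlda3* call was lost when the 4 libraries with both classes were fitted with library as a block (1.37 ± 0.60, edgeR adjusted p = 0.57) and with cluster Fibroblast 1 alone. From the list of 26 other p53 targets, those called over the whole fibroblast class were all higher, as 5.11% of all genes were. They were *Ak1* (log2 fold change 4.72), *Dcxr* (3.87), *Perp* (3.21), *Sulf2* (2.55), *Eda2r* (1.93), *Zmat3* (1.77), *Fas* (1.73) and *Plk2* (0.97). In the neural class *Sulf2* (1.86) and *Ercc5* (0.88) were higher and *Perp* (−1.98) was lower. Cluster Fibroblast 2, which has 39 cells, 3 sums, collagen and other feeder markers at 1351 to 3980 CPM and germ cell markers at 227 to 1018, had 7 of 8 called when taken alone, where 33% of all genes were called. There *Cdkn1a* averaged 1119 ± 719 CPM (SD, n = 3), *Phlda3* 426 ± 220 and *Mdm2* 477 ± 245, with log2 fold changes over SSC1-4 of 2.98 ± 0.34, 4.41 ± 0.32 and 1.62 ± 0.18, whereas *Trp53* was at 268 ± 19.6 CPM and not called (0.44 ± 0.20, edgeR adjusted p = 0.070). *Dmrt1* was at 97.7 ± 111 CPM in it (−1.44 ± 0.39, edgeR adjusted p = 0.0019). The level of feeder markers moved with these values. The part of feeder cells, or of their treatment with mitomycin C, in the result was not tested.

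In the neural class *Cdkn1a* alone was called of 8 (7.36% of all genes, 2.87% as lower), lower at 14.7 to 143 CPM in 12 libraries (−1.29 ± 0.27, edgeR adjusted p = 0.00049). The call was lost and the sign turned with sums per batch and day (0.29) and with Neural 3 cells only (0.31), and it was lost with Neural 2 cells only. *Trp53inp1* had an adjusted p of 0.020 by edgeR but a log2 fold change of 0.56 ± 0.17, under the fold limit, and was called with sums per batch and day (1.05, edgeR adjusted p = 0.028). Cluster Neural 3, with 61 cells in 2 libraries, stood apart: *Trp53* averaged 490 ± 7.8 CPM (SD, n = 2) and *Dmrt1* 41.3 ± 31.6, and 6 of 8 were called (29.6% of all genes in that fit), with *Trp53* at 1.34 ± 0.20, *Bbc3* at 3.21 ± 0.57 and *Dmrt1* at −2.73 ± 0.47 on the log2 scale. That cluster had germ cell markers at 140 to 302 CPM, Sertoli markers at 260 to 382, neural markers at 307 to 338 and feeder markers at 1134 to 1169, so its name covers several marker sets. Neural 1 cells alone kept *Cdkn1a* as called and no other member. In the early-pluripotent (1.24% of all genes) and meiotic classes (1.38%) 0 of 8 were called; by unadjusted p below 0.05, edgeR had *Bbc3* and *Phlda3* higher in the first and *Trp53inp1* lower in the second, and DESeq2 called none of the 8 in either.

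**Figure D3:**
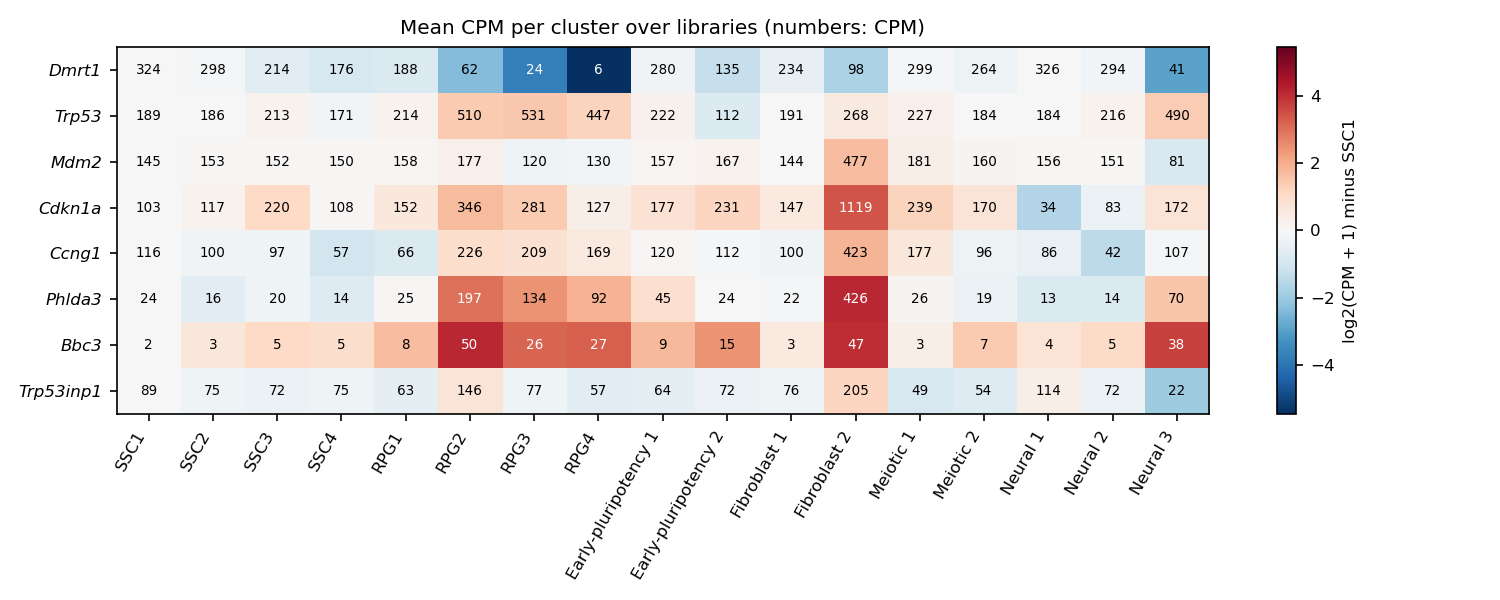
Mean level of each gene in each of 17 clusters of the original condition with a library of at least 5 cells. Numbers are CPM averaged over libraries, and colour gives log2(CPM + 1) relative to SSC1. RPG2 to RPG4 and Neural 3 share low *Dmrt1* with high *Trp53*, while Fibroblast 2 has the highest *Cdkn1a*, *Mdm2*, *Ccng1* and *Phlda3*.

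Over the 18 clusters, each taken as the mean CPM over all its cells without TMM factors and on the log2(CPM + 1) scale, *Phlda3* and *Bbc3* ran most closely together among the 8 genes (Pearson r = 0.91), followed by *Ccng1* with *Phlda3* (0.84) and *Cdkn1a* with *Ccng1* (0.82). *Dmrt1* ran against *Bbc3* (r = −0.80), *Phlda3* (−0.70) and *Trp53* (−0.69). *Trp53* had little relation to *Cdkn1a* (0.07) and *Ccng1* (0.12). The clusters share libraries and were built on these transcriptomes, so the coefficients describe and do not test. Of 13490 other genes with at least 10 CPM in some cluster, those nearest to *Dmrt1* were *Pnma5* (r = 0.97), *Xlr4b* (0.96), *Mpc2* (0.96), *Wrap73* (0.96) and *Rbm46* (0.96), and those nearest to *Trp53* were *Hsd17b10* (0.96), *Rab8a* (0.96), *Btf3* (0.96), *Ccdc43* (0.95) and *Psma3* (0.95).

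Time in culture made no called difference within SSC1-4. Over the 36 libraries from day 0 to day 27, 0 of 8 genes passed a test on day by edgeR (4.02% of 17882 genes did), and 0 of 8 had an unadjusted p below 0.05 there. DESeq2 also called none of the 8. *Dmrt1* changed by −0.009 ± 0.014 log2 units per day and *Trp53* by 0.010 ± 0.010. *Dmrt1* was at 231 CPM in the library of day 0, between 284 and 427 on day 16, between 80.6 and 265 on day 23 and between 285 and 358 on day 27. Day 16 and day 23 did not overlap, and the levels followed no single direction over time. *Cdkn1a* was at 79.8 CPM on day 0, 194 on day 10, 35.5 and 54.1 on day 12, 123 to 219 on day 23 and 51.2 to 119 on day 27. Within RPG3, *Trp53* was at 275 CPM on day 12, 539 and 708 on day 18, 450 to 544 on day 20, and 536 and 603 on day 23, with no test across these days.

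**Figure D4:**
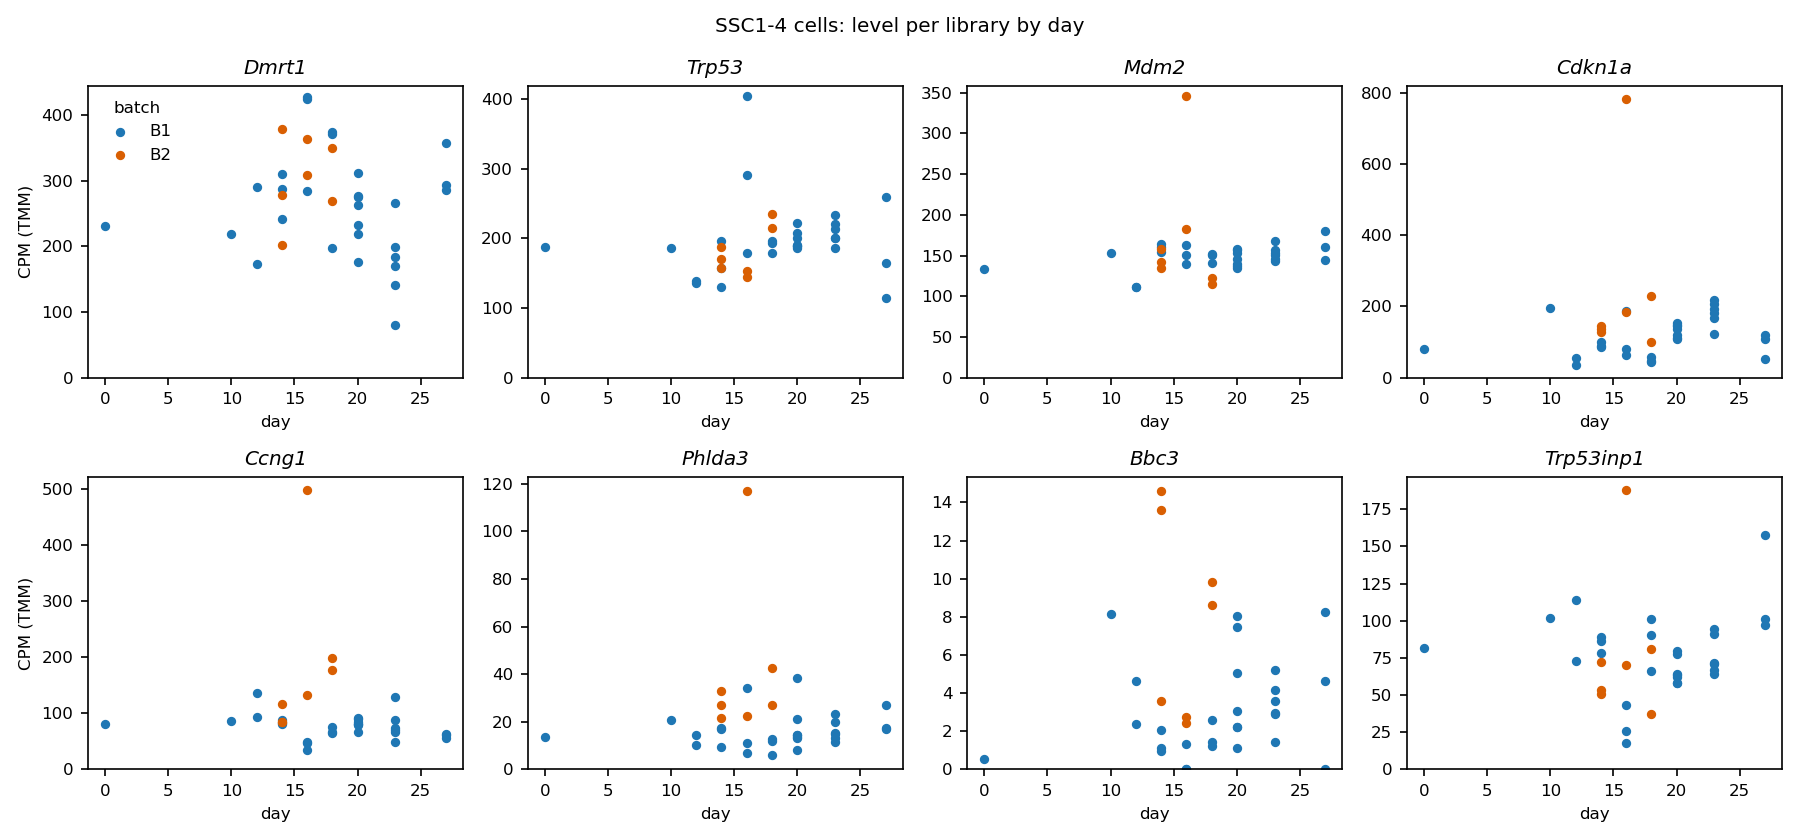
Level of each gene in SSC1-4 cells, in CPM, by day; each point is 1 library (blue batch B1, orange batch B2). *Dmrt1* lies between 80.6 and 427 CPM with no single direction over time, and day 16 replicate 6, a sum of 8 cells, holds the highest *Mdm2*, *Cdkn1a*, *Ccng1*, *Phlda3* and *Trp53inp1*.

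The established lines had *Dmrt1* close to the RPG4 libraries and *Trp53* and *Cdkn1a* above the median of SSC1-4. *Dmrt1* was at 5.34 CPM in gPSC p1 (exact Poisson 95% interval 4.12 to 6.81), 9.61 in gPSC p15 (7.83 to 11.7) and 5.01 in ESCs (3.89 to 6.35); with 1 library each there is no test, and the intervals cover counting error only. *Trp53* was at 656 CPM in gPSC p1, 495 in p15 and 632 in ESCs, all above the highest SSC1-4 library. *Cdkn1a* stood at 403, 442 and 568 CPM, which is above the RPG4 libraries. *Phlda3* was at 121 and 117 CPM in the gPSC libraries and 58.3 in ESCs, a ratio of 2.08 for p1 over ESC (1.91 to 2.27). *Bbc3*, at 10.4, 15.1 and 9.58 CPM, lay inside the SSC1-4 range in gPSC p1 and ESCs and under every RPG2, RPG3 and RPG4 library. *Trp53inp1* differed most between the passages, with 43.6 CPM in p1 and 160 in p15, a ratio of 3.66 (3.32 to 4.05). *Mdm2* at 102, 92.1 and 115 CPM and *Ccng1* at 179, 136 and 190 CPM completed the set.

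In the scTrio-seq2 experiment the classes of cells were the study's own predictions, learnt from the STRT-seq clusters, so class differences there are not independent of those above. Days and treatment cannot be told apart: the 5C samples were of days 12, 14 and 16, and the DMSO samples of days 20 and 24, 1 of the latter with 8 cells of day 0. Sums held 283224 to 6604689 UMIs in the SSC, RPG1 and RPG3 classes compared here. RPG3 cells under 5C had 6 of 8 genes called against SSC (39.9% of 10802 genes), with *Dmrt1* lower and *Trp53* and 4 targets higher. *Dmrt1* was at 191 to 365 CPM in the 8 SSC sums (median 264) and at 20.7 to 80.7 CPM in the 6 RPG3 sums (median 23.1), with no overlap and a 7.79-fold difference (log2 fold change −2.96 ± 0.27, edgeR adjusted p = 4.8e-10). *Trp53* was at 165 to 231 CPM in SSC and 565 to 648 in RPG3, again apart (1.65 ± 0.10, edgeR adjusted p = 4.4e-13). *Cdkn1a* (1.55 ± 0.24), *Ccng1* (edgeR adjusted p = 0.0018), *Phlda3* (2.14 ± 0.45) and *Bbc3* (2.16 ± 0.58) were also higher. Of 23 tested p53 targets of the list, 10 were higher and 2 lower (18.4% and 21.4% of all genes). RPG1 against SSC under 5C had 0 of 8 called, and 0 of 10750 genes in all by edgeR (0%); 793 genes had an unadjusted p below 0.05, and DESeq2 called 16 genes, none of them among the 8.

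5C against DMSO was compared within the same predicted class, over genes listed in both tables. In SSC cells 0 of 8 were called (16.4% of 12260 genes). *Trp53* was at 165 to 231 CPM in the 8 5C sums and 132, 112 and 137 CPM in the 3 DMSO sums, which did not overlap, but the log2 fold change of 0.56 ± 0.15 (edgeR adjusted p = 0.0093) was under the fold limit. In RPG1 0 of 7 tested were called (4.88% of 9350 genes), and *Bbc3* was too scarce to be tested. By unadjusted p below 0.05, edgeR had *Dmrt1*, *Phlda3* and *Trp53* in SSC cells and none of the 7 in RPG1 cells.

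In RPG3, *Cdkn1a* and *Ccng1* were lower under 5C (2 of 8, where 13.4% of 11390 genes were called, 7.24% as lower). RPG3 cells had a median of 6624 genes and 97826 UMIs under 5C, and of 4970.5 genes and 72906.5 UMIs under DMSO. The part of this difference was not tested. *Cdkn1a* was at 88.5 to 272 CPM in the 6 5C samples (median 168) and at 428 and 433 CPM in the 2 DMSO samples, without overlap (−1.32 ± 0.26, edgeR adjusted p = 0.0023). *Ccng1* was at 41.2 to 114 CPM under 5C (median 85.3) and at 158 and 188 CPM under DMSO (−1.04 ± 0.29, edgeR adjusted p = 0.024). Its call was lost without DMSO replicate 1 (−1.17) and without DMSO replicate 2 (−0.91), fits in which 1 DMSO sum was left. *Trp53* was at 565 to 648 CPM under 5C and at 885 and 956 CPM under DMSO (−0.60 ± 0.13, edgeR adjusted p = 0.0041), under the fold limit. *Phlda3*, at 11.2 to 113 CPM under 5C and 144 and 171 CPM under DMSO, also did not overlap but was not called (−1.54 ± 0.51, edgeR adjusted p = 0.052). It was called with DESeq2 size factors (−1.56, edgeR adjusted p = 0.046) and without 5C replicate 3 (−1.37, edgeR adjusted p = 0.046) or 5C replicate 7 (−1.89, edgeR adjusted p = 0.013). *Dmrt1* ran the other way, 20.7 to 80.7 CPM against 16.1 and 13.1 CPM (1.23 ± 0.58, edgeR adjusted p = 0.18).

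The difference between 5C and DMSO in the RPG3 to SSC contrast was then tested as an interaction, and 4 of 8 genes were called (9.25% of 13698 genes, with 4.04% positive and 5.21% negative). The contrast was smaller under 5C for *Trp53* (difference of log2 fold changes −1.17 ± 0.19, edgeR adjusted p = 0.00013), *Cdkn1a* (−1.85 ± 0.43, edgeR adjusted p = 0.0047) and *Phlda3* (−3.00 ± 0.83, edgeR adjusted p = 0.018). For *Dmrt1* the fall was smaller under 5C (1.63 ± 0.48, edgeR adjusted p = 0.026). The DMSO side of this test comes from different samples, since DMSO replicates 1 and 2 gave the RPG3 sums and replicates 3, 4 and 5 the SSC sums, so sample and class cannot be told apart there.

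**Figure D5:**
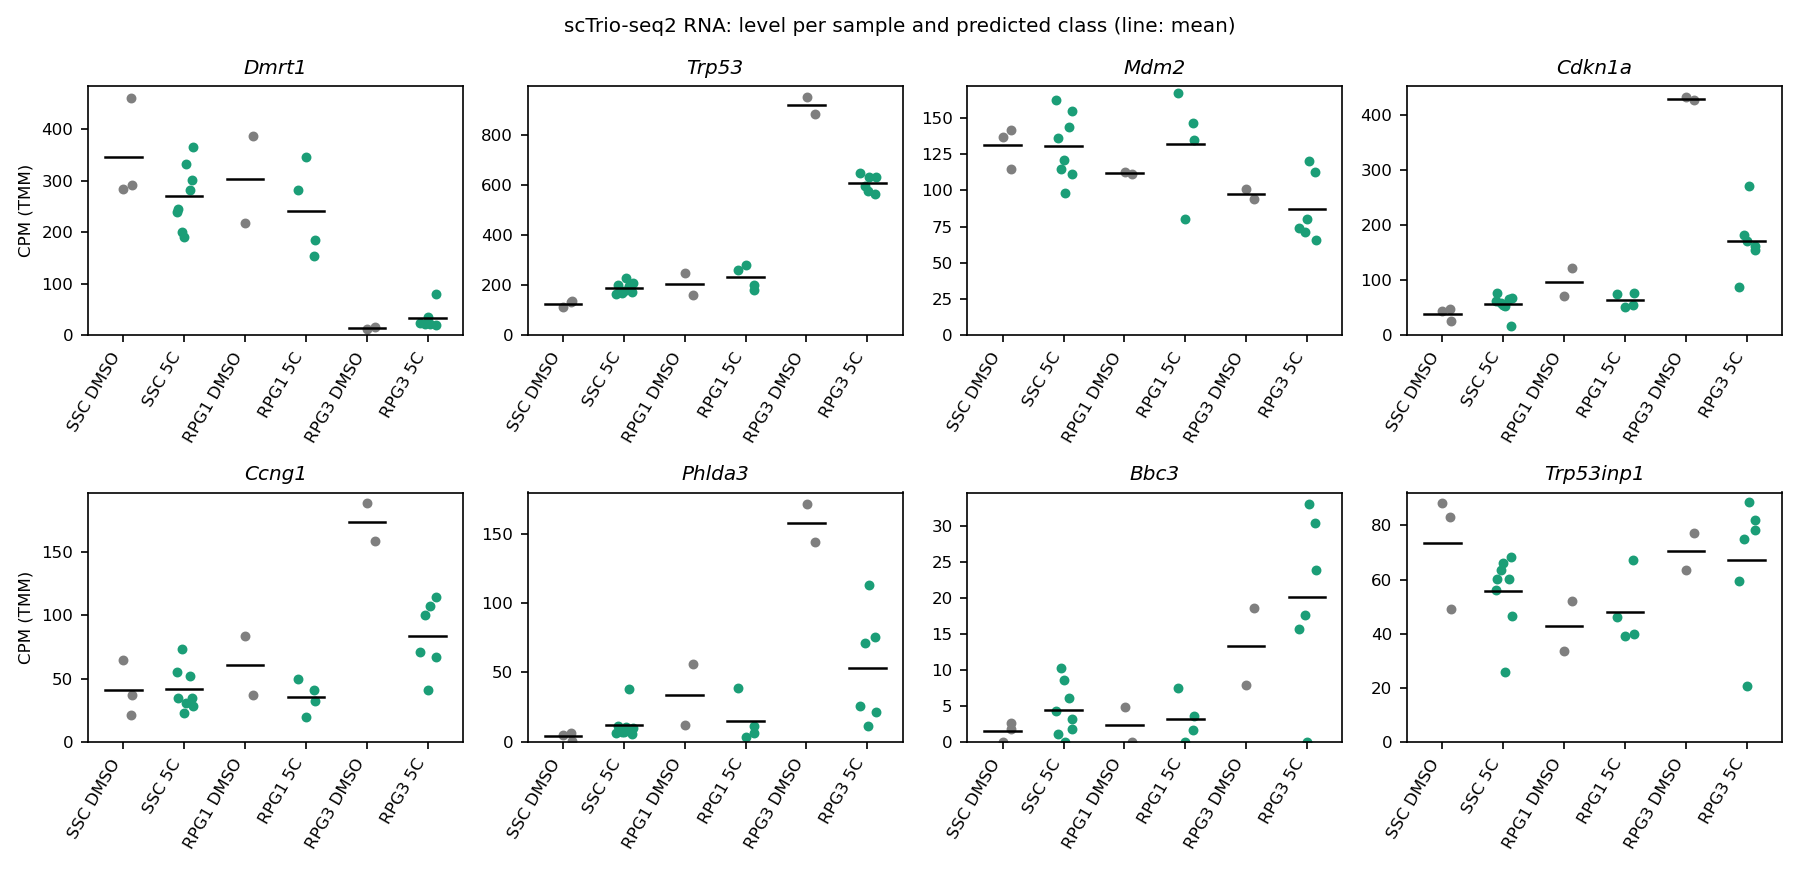
Level of each gene in scTrio-seq2 RNA, in CPM, per sample and predicted class; grey points are DMSO samples, green points 5C samples, and bars are means. In RPG3 the 2 DMSO samples lie above all 6 5C samples for *Trp53*, *Cdkn1a*, *Ccng1* and *Phlda3* and below them for *Dmrt1*.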

How the data were processed

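Single-cell RNA counts of 46 original-condition libraries, 3 line libraries and 13 scTrio-seq2 samples were used. The authors aligned reads with STAR 2.7.2b to mm10, counted genes with featureCounts 2.0.0 and collapsed UMIs; the deposited values are raw UMI counts per gene and cell, already filtered by the authors. Deposited columns of mitochondrial percent were read but enter no result. The metadata gave cluster, day and batch, and scTrio-seq2 classes came from the study's predictions. No column belonged to samples outside the series. Counts were summed per library and class (at least 5 cells) and fitted over all genes with edgeR 4.0.16 in R 4.3.3 (TMM, filterByExpr, quasi-likelihood F test, two-sided, Benjamini-Hochberg over all genes); the standard error is the log2 fold change divided by the root of F. DESeq2 1.42.0, other filters, blocks, batches and omitted libraries were alternatives. Scripts were tested on simulated data. Counts over unadjusted p-values are of the same fits. Intervals cover counting error only. The sources do not state that libraries of a day were separate cultures, so p-values measure the spread between libraries, which may be technical. Pairing comes from libraries holding both classes (correlation of their deviations 0.104 to 0.192 over 4 libraries for the fibroblast class, −0.0311 to 0.142 over 10 for the neural class). The 8 genes were named throughout, with the 5 genes most correlated over clusters to *Dmrt1* and to *Trp53*, and called genes of 4 lists; genes and lists were chosen with earlier results of these data known. In scTrio-seq2, genes absent from either table were not compared between treatments. No doublet caller was run. Cells with counts identical to another cell numbered 0 in each table.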

Additional observations from a re-analysis of the deposited data

Results flagged for a closer look

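A sample stood apart from the others of its group, by the gap to its nearest neighbour, in 12 of 96 groups of 4 to 10 samples examined, where chance gives about 1 in 20. That rate is for independent groups, whereas the same sums recur here across the 8 genes, so it is only a guide. SSC1-4 of day 16 replicate 6, a sum of 8 cells and 433094 UMIs, accounted for 4 of them: *Mdm2* at 347 CPM (others 139 to 183), *Cdkn1a* at 781 (62.4 to 187), *Ccng1* at 498 (34.8 to 133) and *Phlda3* at 117 (6.70 to 34.01). RPG3 of day 12 replicate 2, a sum of 7 cells, had *Ccng1* at 328 CPM (others 147 to 232) and *Trp53inp1* at 197 (35.9 to 70.6). The remaining ones were *Trp53inp1* at 75.2 CPM in meiotic cells of day 16 replicate 4 (others 43.2 to 53.5), *Ccng1* at 116 in SSC1-4 of day 14 replicate 5 (80.2 to 87.9) and *Phlda3* at 38.2 in SSC1-4 of day 20 replicate 8 (8.20 to 20.99). In 5C samples they were *Cdkn1a* at 16.6 CPM in SSC of replicate 1 (others 54.0 to 76.3), *Dmrt1* at 80.7 in RPG3 of replicate 1 (20.7 to 35.6) and *Phlda3* at 38.4 in SSC of replicate 7 (5.83 to 11.3).

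The log2 fold change of RPG3 over SSC differed between 5C and DMSO by an interaction test in edgeR for *Cdkn1a* (−1.85), *Dmrt1* (1.63), *Phlda3* (−3.00) and *Trp53* (−1.17); treatment, day and sample cannot be told apart in it.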

How the results depend on the processing

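Of 1961 gene values recomputed under other tools, filters, blocks, batches or libraries, 1918 kept their direction and their side of the threshold, 24 lost a call, 18 gained one and 1 reversed; of 320 under further settings chosen after seeing the data these were 286, 14, 16 and 4. Sign changes of values that were not called are counted as kept. The cause of the changes below was not tested. The reversed values were *Cdkn1a* in the neural class with sums per batch and day (0.29) and, with Neural 3 cells only, *Dmrt1* (−2.73), *Cdkn1a* (0.31), *Phlda3* (1.84) and *Trp53inp1* (−1.79).

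The number of the 8 genes called changed by more than 1.5 times as follows. With sums per batch and day it was 4 in RPG2 against SSC1-4, 3 in RPG2 against RPG1, and 0 in RPG3 against RPG2 and in RPG4 against RPG3. With batch as a covariate it was 1 in RPG1, 4 in RPG2 and 2 in the fibroblast class. Within batch B1 it was 1 in RPG1 and 3 in the fibroblast class, and within B2 it was 4 in RPG2 against SSC1-4, 2 in RPG2 against RPG1 and 0 in RPG3 against RPG2. With only both classes compared in the fit it was 0 in RPG3 against RPG2 and in RPG4 against RPG3, and with at least 10 cells per sum 3 in the former. It was 0 with Fibroblast 1, 7 with Fibroblast 2, 0 with Neural 2 and 6 with Neural 3 cells only. Leaving out 1 library gave 4 to 7 in RPG2 against SSC1-4, 1 to 2 in the fibroblast class, 0 to 3 in RPG3 against RPG2, 0 to 1 in RPG4 against RPG3 and 1 to 3 for 5C against DMSO in RPG3. Size factors moved the median of all genes by 0.14 (RPG4 against SSC1-4) and 0.12 (RPG4 against RPG3), and gave 2781 higher and 2460 lower genes in the first, against 2347 and 2814, and 946 and 736 in the second, against 778 and 915.

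With the library as a replicate block, 0 genes were called in the fibroblast class and 0 in RPG4 against RPG3, where *Phlda3* and *Dmrt1* had been. The replicate number of the title as a block added *Ccng1* in RPG4 against SSC1-4 (1.06, edgeR adjusted p = 0.0495). Title numbers of 5C and DMSO samples did not pair them, with correlations of deviations from −0.0102 to 0.0178 over 3 pairs in SSC. No library block was possible for RPG4 against SSC1-4 or RPG2 against RPG1, which share no library, or RPG3 against RPG2, which share 1.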
